A study of Arabidopsis thaliana with 2 samples.

Results

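Polygalacturonases are secreted enzymes that cut the galacturonic acid backbone of pectin, a main component of the primary cell wall and of the middle lamella between cells. Pectin is secreted in a methylesterified form, and pectin methylesterases remove the methyl groups before polygalacturonases and pectate lyases act on the chain. Members of the polygalacturonase family are known for roles in cell expansion and in the separation of cells, as in organ abscission, fruit and anther opening and the release of pollen grains. Here 10 Arabidopsis thaliana polygalacturonase loci were followed in shoots of a GFP-TIE1 transgenic line and of wild type. Of the 10, 7 were among the 13286 loci to which the annotation used here gave a probe set of their own. The loci were chosen by family and because 1 of them, AT3G15720, was already known to be strongly higher in the transgenic line, so the value of that gene chose the group and is given as a description.

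The samples were the aerial parts of 14-day-old seedlings, collected from the GFP-TIE1-15 line, labelled a GFP-TIE1 transgenic line, and from Columbia-0 wild type. TIE1 is known to interact with TCP transcription factors, which act in leaf development, and to bring corepressors to them. The promoter of the transgene, the background it was made in and the number of plants pooled were not given in the sources used here, and GFP-TIE1-15 is 1 line. Each genotype was hybridised to 1 Affymetrix array, so there was no test, no error and no replicate check for any difference below, and the number of arrays limits the precision of every value.

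Signals were deposited as linear intensities, 1 per probe set, and signals of different probe sets are not compared with each other as transcript levels. The median signal over 22810 probe sets was 173.05 on the GFP-TIE1-15 array and 169.3 on the wild-type array. A probe set was called measured when its brighter array reached a signal of 200.02, which is 40% of the trimmed mean of the arrays. All ratios have GFP-TIE1-15 on top and are on the log2 scale, after a pseudocount of 10% of the trimmed mean was added to each signal, which makes the ratios of dim genes smaller. The size rule asked for a 2-fold difference, that is, a log2 ratio of 1 or more, or of -1 or less. It was met by 136 (1.20%) of 11308 measured probe sets on the higher side in GFP-TIE1-15 and by 270 (2.39%) on the lower side, and the median over all 11308 was 0.01. RNA came from whole shoots, where a difference in the number of cells of a type and a difference in RNA per cell cannot be told apart.

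Beside the 7 loci with a probe set of their own, 2 of the 10 shared a single probe set, and 1 had no named probe set here. The 1 measured locus was AT3G15720, and it passed the size rule. The other 6 loci with their own probe set stayed below the brightness minimum on both arrays, as did the shared probe set.

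AT3G15720 had a signal of 798.5 in GFP-TIE1-15, against 84.7 in wild type. Its signal was thus above the brightness minimum in GFP-TIE1-15 and below it in wild type. The ratio of the deposited signals was 9.43, and the log2 ratio with the pseudocount was 2.66. Within its own array, the probe set stood at percentile 80.8 of all non-control probe sets in GFP-TIE1-15 and at percentile 39.3 in wild type. This share of 1 gene past the rule among 1 measured gene is set by how the loci were chosen, and nothing is read from it against the 1.20% of all probe sets. Because the wild-type signal was dim, the size of the difference depended on how low signals were treated. With the brightness minimum in place of the wild-type signal and no pseudocount, the GFP-TIE1-15 signal was 3.99-fold higher, a log2 ratio of 2.00. The pseudocount of 10% gave a value between this and the log2 ratio of 3.22 at a pseudocount of 1.

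**Figure D1:**
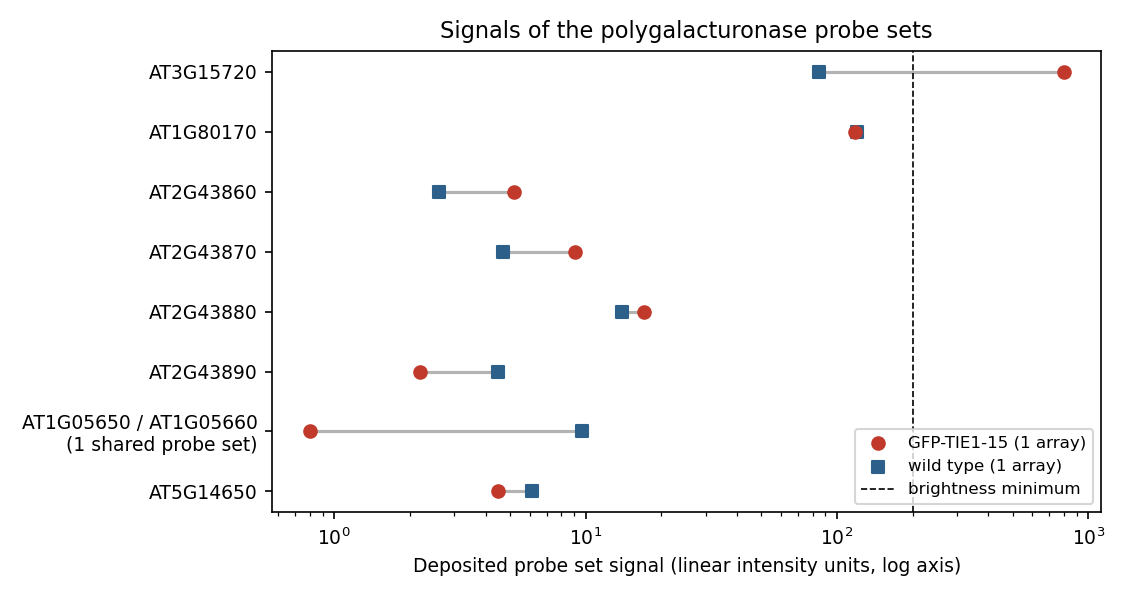
Deposited signals (x axis, linear intensity units on a log axis) of the 8 probe sets of the polygalacturonase loci, 1 per row, with a circle for the GFP-TIE1-15 array, a square for the wild-type array and a dashed line at the brightness minimum of 200.02. Only the GFP-TIE1-15 signal of AT3G15720, at 798.5, lies to the right of the line.

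AT1G80170 was the locus with the least difference between genotypes relative to its signal. It had a signal of 117.7 in GFP-TIE1-15 and 120.7 in wild type. Both lie below the minimum, near the middle of their arrays at percentile 43.8 in GFP-TIE1-15 and 44.4 in wild type, and the log2 ratio was -0.03.

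The loci AT2G43860, AT2G43870, AT2G43880 and AT2G43890 lie close together in gene order, within a run of 5 protein-coding genes of which the other is AT2G43865. AT2G43860 had a signal of 5.2 in GFP-TIE1-15 and 2.6 in wild type. AT2G43870 had 9.1 in GFP-TIE1-15 and 4.7 in wild type. AT2G43880 had 17.0 in GFP-TIE1-15 and 14.0 in wild type. These 3 signals were slightly higher in GFP-TIE1-15, by at most 4.4 units of signal, and all of them lay far below the minimum. AT2G43890, whose annotated span overlaps that of the next gene, had 2.2 in GFP-TIE1-15 and 4.5 in wild type, and so differed the other way. None of the 4 loci came near the minimum in either genotype. As deposited their differences had no common sign, but after removal of the trend with signal all 4 log2 ratios were below 0, from -0.22 for AT2G43890 to -0.04 for AT2G43870. That trend was fitted on measured probe sets, which are all brighter than these loci.

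AT5G14650, described in Arabidopsis under the name PGLR for a polygalacturonase of roots, had a signal of 4.5 in GFP-TIE1-15 and 6.1 in wild type. Signals this low were common, since 22.8% of non-control probe sets on the GFP-TIE1-15 array and 21.8% on the wild-type array were under 20. All 5 loci with their own probe set other than AT3G15720 and AT1G80170 were under 20 on both arrays, at percentile 21.3 or lower. Over the 6 loci below the minimum, 3 signals were higher and 3 lower in GFP-TIE1-15, and their log2 ratios ran from -0.06 to 0.11. With a pseudocount of 1 the range was -0.78 to 0.83, and after removal of the trend with signal all 6 were below 0, from -0.22 to -0.04. The signs of AT2G43860, AT2G43870 and AT2G43880 thus changed with the processing. AT1G80170, AT2G43890 and AT5G14650 stayed below 0 in every planned setting. With 1 array per genotype and signals this dim, no size or sign of the 6 is firm. A 2-fold ratio between signals of this size, such as that of AT2G43860, amounts to a few units of signal and is given no fold.

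AT1G05650 and AT1G05660 are adjacent genes that the platform's annotation assigns to the same probe set, so their transcripts cannot be told apart. That probe set had a signal of 0.80 in GFP-TIE1-15 and 9.7 in wild type, both far below the minimum. QRT2 (AT3G07970), known for its role in the separation of pollen grains after meiosis, had no named probe set and was not analysed here.

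**Figure D2:**
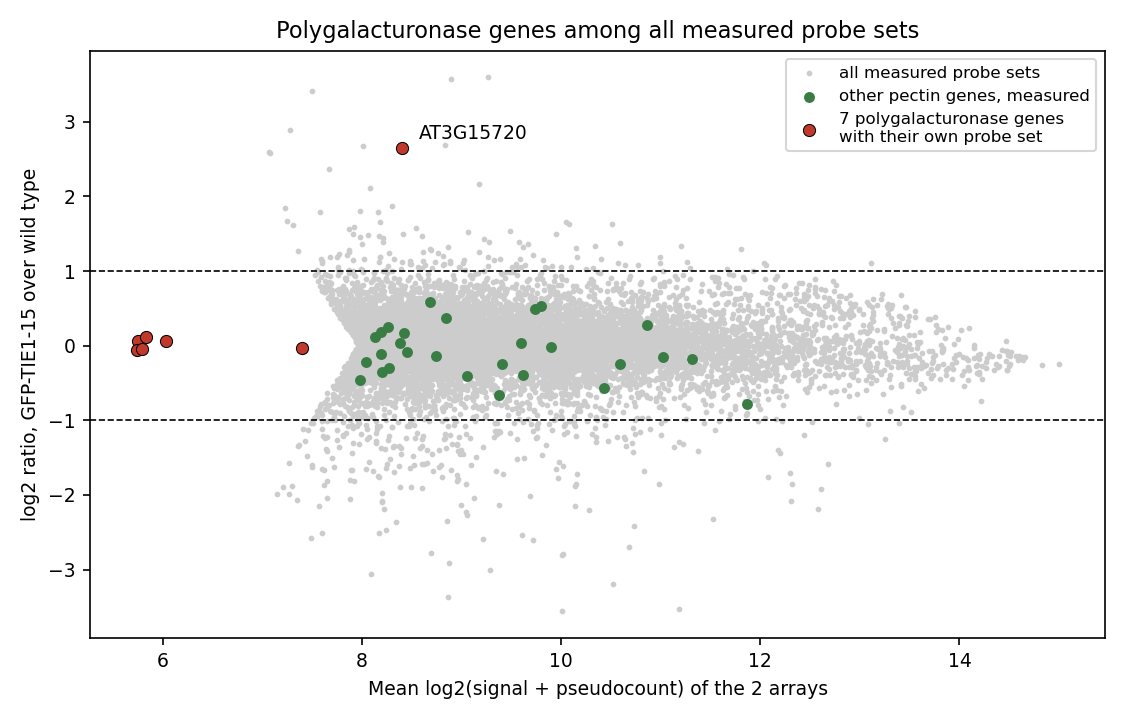
Log2 ratio, GFP-TIE1-15 against wild type (y axis), against the mean log2(signal + pseudocount) of both arrays (x axis), with all measured probe sets in grey, measured genes of the other pectin lists in green and the 7 polygalacturonase loci with their own probe set in red. Dashed lines mark the size rule, and AT3G15720 at 2.66 is the red point above the upper line, while the other 6 lie between -0.06 and 0.11, 5 of them left of all measured probe sets and AT1G80170 near their left edge.

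A wider list of 25 further polygalacturonase loci, compiled from general knowledge of the species, was read in the same way. Of these, 18 had their own probe set and 7 were measured. None of the 7 passed the size rule in either direction. The share over all measured named genes was 1.17% on the higher side and 1.93% on the lower side, so nothing is read from this. Of the 7, 4 had a log2 ratio above 0 and 3 below 0, and the median of the 7 was 0.04. AT3G62110 had the largest difference of the 7, with a signal of 1023.5 in GFP-TIE1-15 and 692.8 in wild type, a log2 ratio of 0.53. AT3G06770 had 572.7 in GFP-TIE1-15 and 688.0 in wild type (-0.25). AT4G33440 had 262.8 in GFP-TIE1-15 and 224.8 in wild type (0.19), and AT4G23820 had 1929.5 in GFP-TIE1-15 and 2143.1 in wild type (-0.15). Both arrays reached the brightness minimum for each of the 7, so the filter did not fix the sign of these ratios.

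Among the 11 loci of this list below the minimum were family members with described roles, named here after their values had been seen. AT1G48100, known as PGX3 and linked to the expansion of cotyledon pavement cells and to stomata, had a signal of 81.6 in GFP-TIE1-15 and 37.9 in wild type. AT1G78400, known as PGX2 and linked to stem growth, had 4.3 in GFP-TIE1-15 and 29.1 in wild type. ADPG1 (AT3G57510), a polygalacturonase of fruit and anther dehiscence, had 4.7 in GFP-TIE1-15 and 28.5 in wild type. These dim signals differed in both directions. PGX1 (AT3G26610), ADPG2 (AT2G41850) and QRT3 (AT4G20050) had no named probe set, nor did the polygalacturonase inhibitor genes PGIP1 and PGIP2.

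The other steps of pectin metabolism were read from 4 lists with measured genes, which hold pectate lyases, pectin methylesterases, pectin methylesterase inhibitors and pectin synthesis genes. Over all 6 lists other than the 10 loci, the wider polygalacturonase list and the inhibitors included, 65 of 112 genes had their own probe set here. Of these, 28 were measured and none passed the size rule. Among 5914 measured named genes, 1.17% passed it on the higher side and 1.93% on the lower side. With so few listed genes, nothing is read from the lack of passing genes among the 28. The 28 had a median log2 ratio of -0.12, beside 0.02 for all measured named genes. The 42 measured control probe sets had a median of -0.15, with ratios from -0.45 to 0.57. PME61 (AT3G59010) and AT3G24670 were among the 28 through the wild-type array alone. Nothing is read from the median of the 28.

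Of 24 pectate lyase genes, which cleave demethylesterified pectin by elimination, 21 had their own probe set. Of these, 11 were measured, 5 of them above 0 and 6 below, with a median log2 ratio of -0.01. One of the 6, AT3G24670, with 193.1 in GFP-TIE1-15 and 234.0 in wild type, reached the minimum in wild type alone, which fixed its sign. AT3G07010 had a signal of 479.0 in GFP-TIE1-15 and 786.3 in wild type (-0.66). AT5G63180 had 1082.4 in GFP-TIE1-15 and 1629.1 in wild type (-0.57). In the other direction, AT3G27400 had 455.6 in GFP-TIE1-15 and 285.6 in wild type (0.59), and AT3G53190 had 962.7 in GFP-TIE1-15 and 669.2 in wild type (0.49). The pectate lyase ratios were thus spread on both sides of 0, and 6 of the 11 lay above 0 after quantile normalization.

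Of 32 pectin methylesterase genes, 19 had their own probe set. Of these, 6 were measured, and all 6 had a log2 ratio below 0, from -0.46 to -0.14, with a median of -0.34. The 6 stayed below 0 under quantile normalization, division by the median and removal of the trend with signal. These settings re-scale the same arrays and put the median at -0.348, -0.369 and -0.372, each further below 0. They were thus no separate check of the signs. PME61 (AT3G59010) had a signal of 164.8 in GFP-TIE1-15 and 245.8 in wild type (-0.46), and reached the minimum in wild type alone, which fixed its sign. AT5G09760 had 413.5 in GFP-TIE1-15 and 564.7 in wild type (-0.41). PMEPCRF (AT5G53370) had 637.1 in GFP-TIE1-15 and 849.2 in wild type (-0.39), and AT3G43270 had 228.7 in GFP-TIE1-15 and 291.5 in wild type (-0.29). With no brightness minimum, 14 of 19 methylesterase genes were below 0 and the median was -0.17. None of these differences reached the size rule. For the 6, the log2 ratios of the 500 measured probe sets nearest in signal had a spread of 0.29 to 0.38. That spread is a standard deviation estimated from the median absolute deviation. Nothing is read from the signs of these genes.

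Of 9 genes of pectin methylesterase inhibitors, which block those enzymes, 5 had their own probe set and 2 were measured. AT5G62360 had a signal of 2797.3 in GFP-TIE1-15 and 4819.4 in wild type (-0.77), and AT5G20740 had 473.0 in GFP-TIE1-15 and 354.4 in wild type (0.37). In pectin synthesis, only 2 of 20 genes had their own probe set here, and both were measured. GAUT15 (AT3G58790), of the galacturonosyltransferase family, had 230.8 in GFP-TIE1-15 and 253.2 in wild type (-0.11). AT5G15740, known as RRT1 and encoding a rhamnosyltransferase for the pectin rhamnogalacturonan, had 288.3 in GFP-TIE1-15 and 281.1 in wild type (0.03). Both synthesis genes were close to equal on the arrays, and the inhibitor genes lay on opposite sides of 0.

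**Figure D3:**
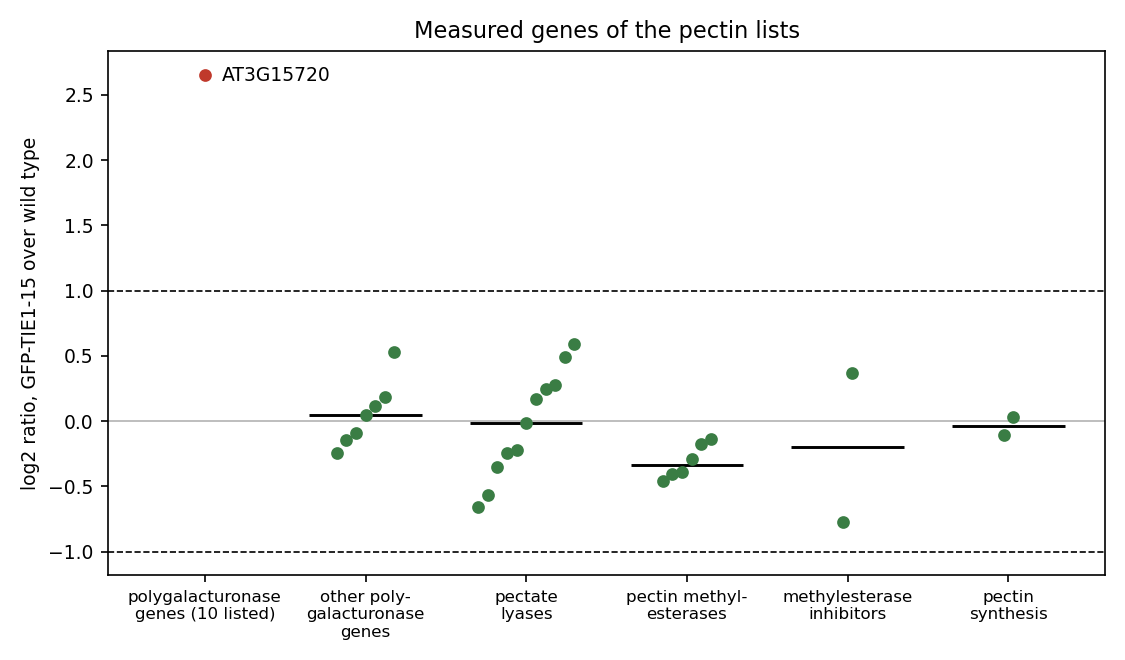
Log2 ratio, GFP-TIE1-15 against wild type (y axis), of every measured gene in the lists of pectin metabolism (x axis), 1 point per gene, with a bar at the median of lists with more than 1 measured gene and dashed lines at the size rule. AT3G15720 at 2.66 is the 1 point beyond a dashed line, and the 28 measured genes of the other lists lie between -0.77 and 0.59.

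AT3G15720 was also set beside the genes around it on the chromosome. Of the 10 protein-coding genes within 5 places on either side, 7 had their own probe set and 4 were measured. None of the 4 passed the size rule, with log2 ratios from -0.29 to 0.58. Since 1.17% of measured named genes passed it on the higher side and 1.93% on the lower, nothing is read from this. On one side the adjacent gene AT3G15710 had a signal of 1591.3 in GFP-TIE1-15 and 1797.6 in wild type (-0.17). On the other side PLDALPHA1 (AT3G15730), which encodes a phospholipase D, had no named probe set. AT3G15680, at 4 places, had the highest ratio of the 4 measured neighbours, with 602.7 in GFP-TIE1-15 and 386.0 in wild type (0.58). The dim neighbour AT3G15740 had 9.3 in GFP-TIE1-15 and 51.1 in wild type, and over the 7 neighbours with their own probe set the signal was higher in GFP-TIE1-15 for 2 and lower for 5.

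**Figure D4:**
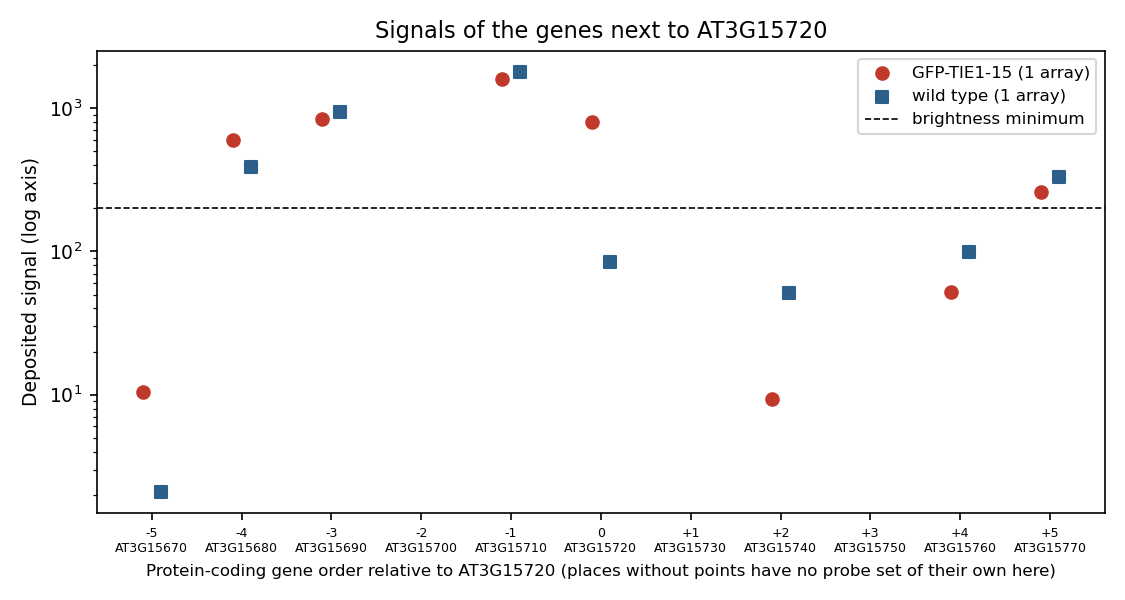
Deposited signals (y axis, log axis) of AT3G15720 and of the protein-coding genes within 5 places of it in gene order (x axis), with a circle for the GFP-TIE1-15 array, a square for the wild-type array and a dashed line at the brightness minimum. At place 0 the symbols for 798.5 and 84.7 lie on opposite sides of the line, and at each other place with points they lie on the same side.

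The measured named genes nearest to AT3G15720 in log2 signal on both arrays, over these 2 samples, were AT4G15680, AT3G49320 and AT5G18840. The glutaredoxin gene AT4G15680 had a signal of 552.4 in GFP-TIE1-15 and 115.1 in wild type, at a distance of 0.57 on the log2 scale. AT3G49320 had 481.5 in GFP-TIE1-15 and 103.6 in wild type, at a distance of 0.70. AT5G18840, of the sugar transporter type, had 594.1 in GFP-TIE1-15 and 166.4 in wild type, at a distance of 0.79. All 3 were below the minimum in wild type and above it in GFP-TIE1-15, as AT3G15720 was. They were picked for nearness to its signals, so this likeness was built in, and 2 samples are too few to call it a shared pattern.

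Marker genes were read for the tissue named in the labels and for other sources of polygalacturonase transcripts. Of 5 markers of green aerial tissue, RCA and LHCB4.1 had a named probe set. The summed signal of both was 36981 in GFP-TIE1-15 and 46720 in wild type. Of 5 root markers, 3 had a probe set, with a summed signal of 6002 in GFP-TIE1-15 and 6838 in wild type, nearly all of it from PYK10, which had 5954 in GFP-TIE1-15 and 6746 in wild type. The root hair markers EXPA7 and EXPA18 were below the minimum on both arrays. The 3 root markers thus differed among themselves, and the presence of root tissue was not tested. Of 7 markers of pollen and anther, 2 of them polygalacturonase genes of the wider list, 5 had a named probe set, including 2 shared with other genes. None of the 5 reached the minimum. Their summed signal was 16.4 in GFP-TIE1-15 and 48.0 in wild type, and AT5G48140 alone had 2.5 in GFP-TIE1-15 and 30.9 in wild type. The pectate lyase gene AT59 ran the other way, with 8.4 in GFP-TIE1-15 and 3.1 in wild type. The part of other tissues in the difference of AT3G15720 was not tested.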

How the data were processed

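The authors deposited probe set signals as intensity values on a linear scale, with GCOS 1.0 and MAS5 named in the submitters' processing notes. The sources used here do not give the scaling target, and no detection calls were used. After 2% of values was trimmed from both tails, each array had a mean of 500.05, so no further scaling was applied.

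Names came from the platform annotation, matched by gene identifier to the TAIR10.1 RefSeq table, which also gave gene order. A single symbol was given for 13513 probe sets, of which 13436 matched a locus. Another 503 had several symbols and entered no gene ratio and no count of measured genes, and 8730 were unnamed here. For a listed locus with no other probe set, the signal of a shared one was given as such. Ratios of a gene's probe sets were averaged, and the gene was measured if any of them was.

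No test was possible with 1 array per genotype. The rule for named genes took all 10 loci, each listed gene past the size rule and otherwise up to 4 measured genes per list, the genes beside AT3G15720 and the 3 nearest to it in signal. Named outside this rule, with values known, were among others AT3G24670, dim loci of the wider list and the neighbours AT3G15680 and AT3G15740. The loci, lists and rules were chosen with earlier results of these data known. Sequences were not used here. Quantile normalization, median scaling, a loess trend, other pseudocounts and minimums, and removal of shared probe sets were tried as alternatives. The software was matplotlib 3.10.9, statsmodels 0.14.6, scipy 1.17.1, pandas 2.3.3, numpy 2.4.6 and Python 3.11.15.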

Additional observations from a re-analysis of the deposited data

How the results depend on the processing

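No paired analysis was possible because only 1 array was made for GFP-TIE1-15 and 1 for wild type. AT3G15720, whose log2 ratio is also the median over measured polygalacturonase loci, was at 3.22 with a pseudocount of 1 and at 2.14 when the pseudocount was 25% of the trimmed mean. It was at 2.00 with the brightness minimum in place of the wild-type signal and no pseudocount, an alternative chosen after seeing the data. That value is thus not on the same scale as the others. With no brightness minimum, the median over 7 loci was 0.066, since the 6 dim loci enter it. Those 6 ran from -0.78 to 0.83 with a pseudocount of 1, and all 6 lay below 0 after removal of the loess trend, which was fitted on measured probe sets alone. AT3G15720 was the 1 locus past the size rule under each planned setting. It was chosen as strongly higher in these same 2 arrays, so nothing is read from this. Over all probe sets, a pseudocount of 1 gave 209 higher, the 25% pseudocount gave 75 higher, and a minimum of 100% gave 83 higher and 178 lower among 6938. At that minimum the methylesterase inhibitor median of -0.20 was -0.77, with 1 gene left, and no pectin synthesis gene remained. None of the measured genes of the 6 other pectin lists passed the size rule under the planned settings. In the main setting 1.17% of measured named genes passed it on the higher side and 1.93% on the lower, so nothing is read from this. The median of all measured probe sets lay between -0.02 and 0.01 in every planned setting. Without detection calls, how far the dim signals stand above background is unknown.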
